A study of Mus musculus with 9 samples.

Results

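The 45 genes described here encode the proteasome and the factors that assemble it, in mouse CD4+ T cells before and after activation. They were all rows of the table whose symbol starts with Psma, Psmb, Psmc, Psmd, Psme, Psmf or Psmg, without the immunoproteasome subunits Psmb8, Psmb9 and Psmb10, without pseudogenes and without genes whose mean level over the 9 libraries was under 1 FPKM. FPKM is fragments per kilobase of transcript scaled to the mapped fragments of a library, so it is a level per length and a share of the library. Of 53 rows with such a symbol, 6 were dropped by name and 2 by level, which left 45 of 25759 genes in the table. The lowest member was Psmd9 at a mean of 6.93 FPKM, and the 2 genes below the limit were Psma8 at 0.0509 FPKM and Psmb11 at 0.0617 FPKM, which encode subunits known from testis and from thymus. The family name fits 43 members. Psmc3ip carries the name of an interaction partner and encodes a cofactor of homologous recombination, and Psme2b is a near copy of Psme2. All 45 passed the filter for testing, a mean of 0.5 FPKM, which kept 15126 genes.

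RNA was sequenced from 3 groups of 3 libraries, all from C57BL/6 mice aged 8 to 12 weeks that carry a Foxp3GFP reporter transgene. Activated BMPR1a KO cells came from the conditional line labelled BMPR1a/CD4cre, in which Cre is driven by the Cd4 promoter. These and the activated WT cells were sorted after a 3 day culture of mixed spleen and lymph node cells with the T cell mitogen ConA at 2 ug/ml and LPS at 10 ng/ml, as CD4+CD44+ cells without the reporter. Naive WT cells were sorted without culture as CD4+CD44- reporter-negative cells. BMPR1a is a receptor for bone morphogenetic proteins. Whether replicates are separate animals or cultures is not in the labels. The p-values therefore reflect the spread among these libraries alone, which may be technical.

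The proteasome degrades proteins tagged with ubiquitin. Its 20S core is a barrel of alpha and beta rings, in which the beta subunits encoded by Psmb5, Psmb6 and Psmb7 hold the chymotrypsin-like, caspase-like and trypsin-like sites. The 19S regulatory particle caps the barrel. It has a base with a ring of ATPases that unfolds the substrate, ubiquitin receptors, and a lid that carries the deubiquitinase encoded by Psmd14. Chaperones assemble the core (Psmg1 to Psmg4) and the base (Psmd5, Psmd9 and Psmd10), while the PA28 and PA200 activators (Psme1 to Psme4) can open the barrel in place of 19S. In lymphocytes the 3 catalytic subunits can be exchanged for those of the immunoproteasome, which cut peptides for presentation on MHC class I.

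A library held 12922 to 13395 genes at 1 FPKM or more, from an unknown number of reads. Bmpr1a itself was at 0.957, 1.93 and 1.2 FPKM in the activated BMPR1a KO libraries, against 2.16, 2.92 and 1.4 FPKM in activated WT, which overlapped (limma adjusted p = 0.261). A gene-level value also counts exons outside a deleted part, so this does not settle the genotype label. Median-of-ratios size factors were 1.04, 1.02 and 1.04 in activated BMPR1a KO and 0.971, 0.973 and 0.982 in activated WT, so these groups did not overlap in scale, and they were 1.01, 0.970 and 1.02 in naive WT. The naive sort held RNA of other cells: 7 neutrophil markers, 5 of 6 tested called lower in activated WT than in naive WT, summed to 0.198 to 1.45 FPKM in activated BMPR1a KO and 0.250 to 0.430 FPKM in activated WT, against 57.8, 689.8 and 113 FPKM in naive WT libraries 1, 2 and 3. For 6 macrophage markers, 4 of 4 tested called lower, the sums were 2.81 to 5.97 FPKM in activated BMPR1a KO, 1.85 to 6.09 FPKM in activated WT and 19.5 to 183 FPKM in naive WT. Both CD8 genes were called higher in each activated group than in naive WT, summing to 220 to 279 FPKM in activated BMPR1a KO, 147 to 230 FPKM in activated WT and 9.48 to 41.4 FPKM in naive WT. B cell markers summed to 122 to 185 FPKM in activated BMPR1a KO, 132 to 167 FPKM in activated WT and 2.95 to 175 FPKM in naive WT. The sums of 5 NK cell markers were 161 to 214 FPKM in activated BMPR1a KO, 164 to 193 FPKM in activated WT and 28.3 to 65.1 FPKM in naive WT. These markers did not move together. Of 4 tested, 2 were called higher in activated WT than in naive WT, Klrd1 and Klrk1, which made up most of the sum in activated libraries. The other 2, Klrb1c and Tyrobp, were called lower. The sums of 5 erythroid markers, 4 of 4 tested called lower on activation, were 0.965 to 1.72 FPKM in activated BMPR1a KO, 0.816 to 1.02 FPKM in activated WT and 63.5 to 84.1 FPKM in naive WT. Foxp3, the gene behind the reporter on which cells were sorted as negative, was at 5.89, 2.21 and 4.31 FPKM in activated BMPR1a KO, against 1.02, 0.989 and 0.867 FPKM in activated WT (log2 fold change 1.32, limma adjusted p = 0.0351) and 2.79, 2.73 and 2.43 FPKM in naive WT. The T cell markers read were Cd3d, Cd3e, Cd3g, Cd4, Cd2 and Lck. They summed to 2172 to 2425 FPKM in activated BMPR1a KO, 2358 to 2612 FPKM in activated WT and 2036 to 2155 FPKM in naive WT. Within this sum Cd3d, Cd3g and Cd2 were called higher in activated WT than in naive WT (log2 fold changes 0.69, 0.24 and 0.77). Lck was called lower (-0.43, limma adjusted p = 0.00127), and Cd3e and Cd4 were not called. The part of other cell types and of scale in the results below was not tested, except where values without a library or under another scaling are given.

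The promoters of 38 members were found in a RefSeq table of the mouse build GRCm38.p6, of which 36 belong to genes with a proteasome role. The 5 stretches below are the 120 bases before the annotated start, 5′ to 3′ on the gene's strand, and are shown because they hold the motifs searched for in subunits called in the comparisons that follow. Capitals mark the core of an antioxidant response element (TGACNNNGC), the ETS core (CCGGAA, or TTCCGG where it lies on the other strand) and the NF-Y box (CCAAT).
Psmb5, chr14:54617996-54618115, minus strand: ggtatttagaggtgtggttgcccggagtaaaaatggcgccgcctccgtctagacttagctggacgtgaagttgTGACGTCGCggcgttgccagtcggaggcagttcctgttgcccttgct
Psmb6, chr11:70525237-70525356, plus strand: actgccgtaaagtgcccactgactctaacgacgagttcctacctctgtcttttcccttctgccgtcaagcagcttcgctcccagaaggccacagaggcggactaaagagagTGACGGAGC
Psma6, chr12:55384102-55384221, plus strand: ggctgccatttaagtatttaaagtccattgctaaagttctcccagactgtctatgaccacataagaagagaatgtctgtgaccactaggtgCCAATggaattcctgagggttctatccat
Psmc2, chr5:21785155-21785274, plus strand: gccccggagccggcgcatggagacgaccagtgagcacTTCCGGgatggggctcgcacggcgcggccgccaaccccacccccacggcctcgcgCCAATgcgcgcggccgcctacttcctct
Psmd2, chr16:20651532-20651651, plus strand: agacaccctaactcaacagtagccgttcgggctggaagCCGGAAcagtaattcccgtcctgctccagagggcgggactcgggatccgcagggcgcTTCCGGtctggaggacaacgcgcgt

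Searched on both strands over the 250 bases before the start, CCGGAA was present in 16 of the 36 promoters of genes with a proteasome role, or 44.4%. It was present in 12.0% of all 32841 promoters in the table and in 25.4% of the 6698 promoters of genes at 10 FPKM or more. CCAAT was found in 12 promoters (33.3%), against 33.9% of all promoters and 35.2% of those of genes at 10 FPKM or more. TGACNNNGC was found in 5 (13.9%), those of Psmb5, Psmb6, Psmc6, Psmd9 and Psmd12. It was in 10.2% of all promoters and in 12.2% of those of genes at 10 FPKM or more. TGACGTCA, the cyclic AMP response element, was in 0 of 36, against 1.55% of all promoters and 2.6% of those of genes at 10 FPKM or more. It shares its first 4 letters with TGACNNNGC. The promoters of Psmd5, Psmd8 and Psmd1 held none of these 4 sequences in the window. The same held for Psma4, Psmb4, Psmc4, Psme1, Psme2, Psme2b, Psmg3 and Psmg4. These are matches of letters only. A single start was read per member, while the shares over all promoters counted every start listed. A window read here can lie inside the gene positions given below. That of Psmd5, 34870963 to 34871212, did so, and that of Psmd1, 86064369 to 86064618, did so almost wholly. Bases before the outer end of such a gene were then not searched.

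**Figure D1:**
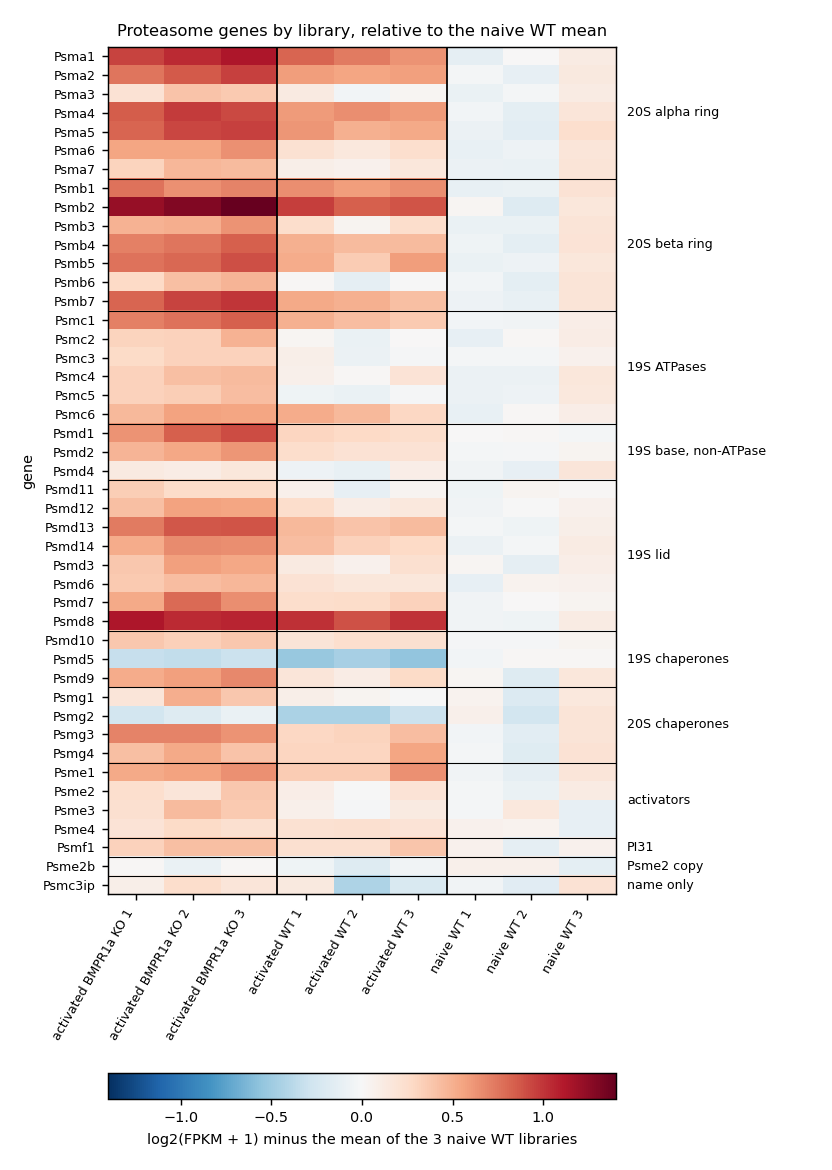
Level of each of the 45 genes (rows, grouped by role) in each of the 9 libraries (columns), as log2(FPKM + 1) minus the mean of the 3 naive WT libraries of that gene. Red is higher and blue is lower than that mean. The activated BMPR1a KO columns are the reddest in most rows, Psmb2 and Psmd8 stand out in both activated groups, and Psmd5 and Psmg2 are blue in activated WT.

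Most core subunits were higher in activated than in naive WT cells, while the assembly chaperones went both ways. Of the 45 genes, 24 were called higher in activated WT and 2 lower, with limma on log2(FPKM + 1) and an adjusted p under 0.05. Among all 15126 genes tested, 26.2% were called higher and 25.8% lower, and among the 7898 genes at 10 FPKM or more 29.5% and 25.3%. The median log2 fold change was 0.21 over the 45 genes and -0.0091 over all genes tested. Every activated WT library lay above every naive WT library for 25 members and below for 2, against 29.6% and 29.8% of all genes tested. The fold change was above 0 for 36 members, against 48.9% of all genes. In bulk RNA, fewer cells of a type and less RNA per cell cannot be told apart, and the groups differ in culture and in sort as well as in activation.

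In the 20S core, of 14 genes 9 were called higher and 0 lower (0 also at an unadjusted p under 0.05), 4 of 7 in the alpha ring and 5 of 7 in the beta ring, with a median log2 fold change of 0.48. Psmb2, a beta subunit without a catalytic site (ENSMUSG00000028837, chromosome 4, 126677630 to 126709714, plus strand), was at 111, 100.3 and 104 FPKM in activated WT, against 57.1, 49.1 and 62.4 FPKM in naive WT. It averaged 105 ± 5.26 FPKM in activated WT and 56.2 ± 6.69 FPKM in naive WT (SD, n = 3 each), a log2 fold change of 0.89 (SE 0.0947, limma adjusted p = 0.000183). The groups lay far apart for this gene, with no library between 62.4 and 100.3 FPKM. The alpha subunit gene Psma1 was at 122, 115 and 108 FPKM in activated WT, against 63.3, 69.7 and 75.1 FPKM in naive WT (log2 fold change 0.72, adjusted p = 0.000301). Psma4 stood at 137, 142 and 137 FPKM in activated WT and at 87.8, 81.5 and 102 FPKM in naive WT (0.62, adjusted p = 0.000644). Neither of these alpha subunits overlapped between the groups. The alpha subunit gene Psma2 was at 173, 169 and 172 FPKM in activated WT, against 113, 106 and 127 FPKM in naive WT (0.57, adjusted p = 0.00076), and the beta subunit Psmb1 at 191, 182 and 192 FPKM in activated WT, against 113, 114 and 139.9 FPKM in naive WT (0.63, adjusted p = 0.000775).

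Of the 3 catalytic subunits, 2 were called in this comparison. Psmb5 was at 89.3, 79.6 and 93.7 FPKM in activated WT, against 58.3, 59.1 and 69.5 FPKM in naive WT (log2 fold change 0.48, SE 0.0911, adjusted p = 0.00295). Psmb7 was at 81.2, 78.8 and 75 FPKM in activated WT, against 52.9, 51.6 and 63.2 FPKM in naive WT (0.48, SE 0.0897, adjusted p = 0.00274). For both, every activated library was the higher one. Psmb6 (ENSMUSG00000018286, chromosome 11, 70525367 to 70527858, plus strand) was at 90.5, 82.0 and 89.1 FPKM in activated WT and at 87.3, 81.5 and 102 FPKM in naive WT, and was not called (-0.04, SE 0.0939, adjusted p = 0.734). The groups overlapped. The alpha subunit Psma7, at 121, 119 and 128 FPKM in activated WT and 108, 107 and 129.7 FPKM in naive WT, also overlapped (0.10, adjusted p = 0.382).

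Of the 17 genes of the 19S particle 9 were called higher and 0 lower (0 also at an unadjusted p under 0.05), with a median log2 fold change of 0.17. The lid gene Psmd8 (ENSMUSG00000030591, chromosome 7, 29174188 to 29180701, minus strand) had the largest fold change of all 45, with 115, 105 and 113 FPKM in activated WT, against 53.9, 53.5 and 60.3 FPKM in naive WT. It averaged 111 ± 5.46 FPKM in activated WT and 55.9 ± 3.82 FPKM in naive WT, 1.98-fold higher (log2 fold change 0.97, SE 0.0675, adjusted p = 2.7e-05). In the lid 5 of 8 genes were called, among them the deubiquitinase gene Psmd14 at 64.1, 59.7 and 57.8 FPKM in activated WT, against 44.6, 46.5 and 51.5 FPKM in naive WT (0.34, adjusted p = 0.0061). Of the 6 ATPase genes 2 were called, Psmc1 and Psmc6, and the other 4 overlapped between the groups. Psmc4, 1 of these 4, was at 60.5, 58.2 and 65.8 FPKM in activated WT and at 54.2, 54.3 and 64.3 FPKM in naive WT (0.09, adjusted p = 0.38). The ubiquitin receptor gene Psmd4 was at 83.3, 81.4 and 93.2 FPKM in activated WT and at 84.2, 80.7 and 98.3 FPKM in naive WT, which also overlapped (-0.03, adjusted p = 0.819).

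Of the 7 assembly chaperones 3 were called higher and 2 lower, against 26.2% and 25.8% of all genes tested. Psmd5, a chaperone of base assembly (ENSMUSG00000026869, chromosome 2, 34849734 to 34874968, minus strand), was at 15.4, 16.1 and 15.1 FPKM in activated WT, against 22.1, 23.0 and 23.0 FPKM in naive WT. It averaged 15.6 ± 0.501 FPKM in activated WT and 22.7 ± 0.524 FPKM in naive WT (log2 fold change -0.52, SE 0.0512, adjusted p = 0.000136), so this gene was lower in every activated library. The base chaperone Psmd10, gankyrin, was the other way: 17.9, 18.7 and 18.5 FPKM in activated WT, against 15.5, 15.5 and 16.2 FPKM in naive WT (0.21, adjusted p = 0.00825). Of the core chaperones, Psmg3 and Psmg4 were called higher, with log2 fold changes of 0.34 and 0.38. Psmg2 was called lower, at 16.1, 16.1 and 17.8 FPKM in activated WT, against 23.4, 18.5 and 25.4 FPKM in naive WT (-0.40, adjusted p = 0.0196, with a range of 0.000674 to 0.0658 over the alternatives). This call rested on single libraries: it was lost without activated WT library 1 or 2 or naive WT library 1 or 3, each of which left Psmd5 as the 1 member called lower. Psmg1 was at 21.9, 21.2 and 20.6 FPKM in activated WT and at 21.4, 17.9 and 22.9 FPKM in naive WT, which overlapped.

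The activator genes Psme1 and Psme2 were the most abundant members, at means of 453 and 298 FPKM over the 9 libraries. Psme3 and Psme4 averaged 59.5 and 17.1 FPKM. Psme1, the PA28 alpha subunit, was at 449, 450.1 and 547 FPKM in activated WT, against 340.0, 321 and 395 FPKM in naive WT (log2 fold change 0.45, SE 0.108, adjusted p = 0.00901), and no libraries overlapped. Its partner Psme2 was at 290.2, 271 and 313 FPKM in activated WT and at 269, 255 and 297 FPKM in naive WT (0.09, adjusted p = 0.424). The nuclear activator gene Psme3 was at 56.5, 53.2 and 58.8 FPKM in activated WT and at 52.6, 59.4 and 49.5 FPKM in naive WT (0.06, adjusted p = 0.574), and the groups overlapped for both. PA200, from Psme4, was at 17.9, 18 and 17.7 FPKM in activated WT, against 16.0, 15.9 and 14.1 FPKM in naive WT (0.21, adjusted p = 0.0242), and the inhibitor PI31, from Psmf1, at 22.2, 22.1 and 24.9 FPKM in activated WT, against 19.7, 17.2 and 19.7 FPKM in naive WT (0.27, adjusted p = 0.0179). Both were higher in every activated library, but the call of Psme4 was lost without activated WT library 1 or 2 (adjusted p up to 0.0693) and that of Psmf1 without activated WT library 3 (0.0526). Neither Psme2b nor Psmc3ip was called, and Psmc3ip was at 9.33, 5.98 and 7.07 FPKM in activated WT and at 8.09, 7.42 and 9.82 FPKM in naive WT.

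**Figure D2:**
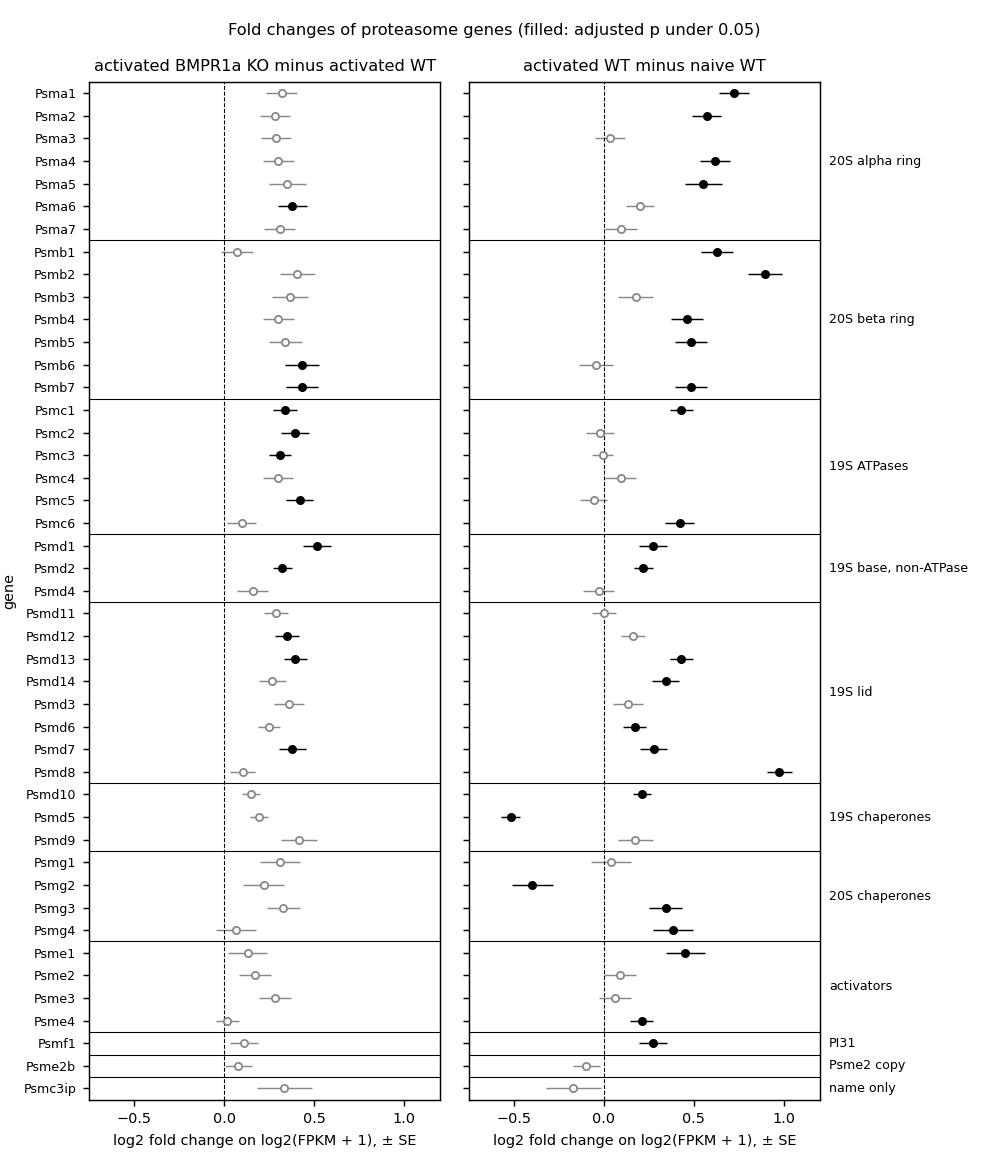
Log2 fold change on log2(FPKM + 1) of each gene (points, with bars of ± 1 SE from limma) for activated BMPR1a KO minus activated WT on the left and activated WT minus naive WT on the right. Filled points had an adjusted p under 0.05. On the left all 45 points lie above 0 within a narrow band with 12 filled, and on the right the points spread from -0.52 (Psmd5) to 0.97 (Psmd8) with 26 filled.

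The genotype comparison asked whether activated BMPR1a KO cells differ from activated WT cells. Proteasome genes lay slightly higher in the activated BMPR1a KO cells across nearly the whole set, by a median log2 fold change of 0.31, against 0.058 over all genes tested. Of the 45 genes 12 were called higher and 0 lower, against 3.3% and 0.84% of all genes tested (4.23% and 0.874% of genes at 10 FPKM or more). All 45 fold changes were above 0, against 60.5% of all genes tested, but 42 of 45 were above 0 under median-of-ratios scaling, where Psmb1, Psme4 and Psmg4 turned, and 42 under quantile normalization, where Psme2b, Psme4 and Psmg4 turned. At an unadjusted p under 0.05, 33 members were higher and 0 lower, against 18.7% of all genes tested higher. Every activated BMPR1a KO library lay above every activated WT library for 36 members and below for 0, against 22.8% and 8.36% of all genes tested. Under median-of-ratios scaling these were 32 members and 14.4% of all genes.

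The number of calls depended on single libraries, on the scale and on the model. It was 37 with array quality weights, 4 with no trend and 1 with the 6 libraries compared alone. Of all genes tested 18.6%, 2.26% and 0.456% were then called higher. It was 0 without activated BMPR1a KO library 2 or 3, without activated WT library 2 or 3 and without naive WT library 1. In those settings calls were also few elsewhere, with 0.311% to 0.859% of all genes tested called higher. Without activated WT library 1 it was 3 and without naive WT library 2 it was 7, against 1.46% and 2.08% of all genes tested. Without naive WT library 3 it was 19 and without activated BMPR1a KO library 1 it was 12, against 3.06% and 5.21%. Each of the 6 called members with the largest fold changes was lost without at least 5 single libraries, always including activated BMPR1a KO libraries 2 and 3, activated WT libraries 2 and 3 and naive WT library 1. With a library left out, 31 to 34 members were higher at an unadjusted p under 0.05, and the median log2 fold change stayed between 0.27 and 0.34. With median-of-ratios scaling 3 members were called (Psmc5, Psmd1 and Psmd13) and 1.1% of all genes tested were called higher of 2.02% called in either direction. The median was then 0.23, and 0 over all genes.

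The 12 called members belonged to the 19S particle and the 20S core, but this split depended on the setting. With array quality weights, where 18.6% of all genes tested were called higher, chaperones and activators were called too. These were Psmd5, Psmd9, Psmd10, Psmg1, Psmg2, Psmg3, Psme2 and Psme3. Psmd9 was also called without naive WT library 2, and Psmg3 without naive WT library 3. With values as deposited and no weights, 9 of 17 genes of the 19S particle were called, with a median of 0.32. In the 20S core 3 of 14 were, with a median of 0.33, against 3.3% of all genes tested called higher. Among the 7 assembly chaperones, the 4 activators and PI31, 0 were then called higher or lower by limma. At an unadjusted p under 0.05 6 of these 12 were higher and 0 lower, against 18.7% of all genes tested higher. Whether these groups of genes differ was not tested.

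Psmd1, a scaffold subunit of the base (ENSMUSG00000026229, chromosome 1, 86064387 to 86139151, plus strand), had the largest fold change. It was at 33.0, 38.3 and 40.4 FPKM in activated BMPR1a KO, against 26.2, 25.7 and 25.1 FPKM in activated WT and 21.2, 21.3 and 20.6 FPKM in naive WT. It averaged 37.2 ± 3.85 FPKM in activated BMPR1a KO and 25.7 ± 0.576 FPKM in activated WT (SD, n = 3 each), 1.45-fold higher (log2 fold change 0.52, SE 0.077, limma adjusted p = 0.0232, with a range of 0.00369 to 0.0942 over the alternatives). All 3 groups were apart for this gene, and activated BMPR1a KO library 1 was the lowest of its group. Activated against naive WT gave 0.27 (adjusted p = 0.018), a call lost without activated WT library 1 or 2 (up to 0.0552). The lid gene Psmd13 had the same order, with 83.7, 92.4 and 92.8 FPKM in activated BMPR1a KO, against 69.1, 66.2 and 68.3 FPKM in activated WT and 49.2, 48.2 and 53.1 FPKM in naive WT. Its log2 fold change between the activated groups was 0.40 (SE 0.0633, adjusted p = 0.0271, range 0.00343 to 0.11).

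The ATPase genes Psmc5 and Psmc2 and the caspase-like subunit gene Psmb6 were called between the activated groups and not between the WT groups. Psmc5 (ENSMUSG00000020708, chromosome 11, 106256154 to 106263120, plus strand) was at 69.0, 70.0 and 74.4 FPKM in activated BMPR1a KO, against 52.7, 51.7 and 54.4 FPKM in activated WT and 51.9, 52.4 and 61.3 FPKM in naive WT (activated BMPR1a KO against activated WT 0.42, SE 0.0742, adjusted p = 0.0322, range 0.00444 to 0.129). Psmc2 was at 53.9, 54.2 and 60.9 FPKM in activated BMPR1a KO, against 43.8, 40.5 and 43.4 FPKM in activated WT and 39.7, 43.5 and 46.4 FPKM in naive WT (0.39, adjusted p = 0.0411, range 0.00653 to 0.153). For both genes the WT groups overlapped and the activated BMPR1a KO libraries lay above all 6 WT libraries. The same held for Psmb6, at 109, 120.2 and 125 FPKM in activated BMPR1a KO, against the 82.0 to 90.5 FPKM of activated WT given above (0.43, SE 0.0939, adjusted p = 0.048, range 0.00588 to 0.17).

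The trypsin-like subunit gene Psmb7 was at 98.4, 108 and 112 FPKM in activated BMPR1a KO, against 81.2, 78.8 and 75 FPKM in activated WT (log2 fold change 0.43, SE 0.0897, adjusted p = 0.0431, range 0.0060 to 0.157). The chymotrypsin-like subunit gene Psmb5 was at 106, 109 and 117 FPKM in activated BMPR1a KO, against 89.3, 79.6 and 93.7 FPKM in activated WT, which did not pass (0.34, SE 0.0911, adjusted p = 0.0752) although the groups did not overlap. The remaining called members were Psma6, Psmc1, Psmc3, Psmd2, Psmd7 and Psmd12, with log2 fold changes of 0.31 to 0.38 and adjusted p of 0.0282 to 0.0449. Of these, Psma6, Psmc3 and Psmd12 were, like Psmc5, Psmc2 and Psmb6, not called between the WT groups (limma adjusted p = 0.0654, 0.939 and 0.0691). Psma6 and Psmd12 came close, with log2 fold changes of 0.20 and 0.16. Both were called higher in activated WT with array quality weights and with median-of-ratios scaling, where 32.9% and 28% of all genes tested were.

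The members with the largest fold changes on activation were not called by genotype. Psmd8 was at 123, 116 and 118 FPKM in activated BMPR1a KO, against 115, 105 and 113 FPKM in activated WT (0.10, SE 0.0675, adjusted p = 0.393). Psmb1 was at 207, 190.0 and 197 FPKM in activated BMPR1a KO, against 191, 182 and 192 FPKM in activated WT (0.07, adjusted p = 0.681, and -0.0062 under median-of-ratios scaling), which overlapped. Psmb2, at 131, 139 and 148 FPKM in activated BMPR1a KO, did not pass (0.41, SE 0.0947, adjusted p = 0.0545), and neither did Psma1 at 134, 144 and 153 FPKM, Psma2 at 194, 209 and 223 FPKM and Psma4 at 162, 179 and 172 FPKM. For these last 4 genes no activated BMPR1a KO library overlapped with activated WT.

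Psmd5, lower in activated WT than in naive WT, was at 18, 17.7 and 18.2 FPKM in activated BMPR1a KO, between those of activated WT and naive WT, and did not pass against activated WT (0.19, SE 0.0512, adjusted p = 0.0734). Psmg2 was at 18.5, 19.5 and 20.8 FPKM, above activated WT and overlapping with naive WT (against activated WT 0.22, adjusted p = 0.273). Psmg1 was at 23.4, 29.7 and 27.1 FPKM in activated BMPR1a KO (0.31, adjusted p = 0.135) and Psmd10 at 20.6, 20.1 and 20.7 FPKM (0.15, adjusted p = 0.123), both above all activated WT libraries. The activator genes Psme1, Psme2 and Psme4 overlapped between the activated groups. Psme1 was at 509, 520.1 and 549 FPKM in activated BMPR1a KO (0.13, adjusted p = 0.504), Psme2 at 321, 307 and 355 FPKM (0.17, adjusted p = 0.283) and Psme4 at 17.6, 18.7 and 18 FPKM (0.02, adjusted p = 0.909). Psme4 gave -0.056 under median-of-ratios scaling and -0.081 under quantile normalization. Psme3 was at 63.0, 73.5 and 69.4 FPKM in activated BMPR1a KO, above every activated WT library, and did not pass (0.28, adjusted p = 0.102).

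The other members named by rule were not called between the activated groups. Psma7 was at 142, 158 and 156 FPKM in activated BMPR1a KO (log2 fold change 0.31, adjusted p = 0.0852), Psmc4 at 71.9, 77.5 and 78.2 FPKM (0.30, adjusted p = 0.0841) and Psmd14 at 68.4, 75.8 and 75 FPKM (0.27, adjusted p = 0.0848). Each of these lay above every activated WT library. Psmf1 was at 23.8, 25.5 and 25.5 FPKM in activated BMPR1a KO (0.11, adjusted p = 0.423) and Psmc3ip at 8.94, 10.1 and 9.58 FPKM (0.33, adjusted p = 0.223), and both overlapped with activated WT. The ubiquitin receptor gene Psmd4, at 95.8, 94.3 and 97.6 FPKM in activated BMPR1a KO, lay above activated WT without passing (0.16, adjusted p = 0.299).

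**Figure D3:**
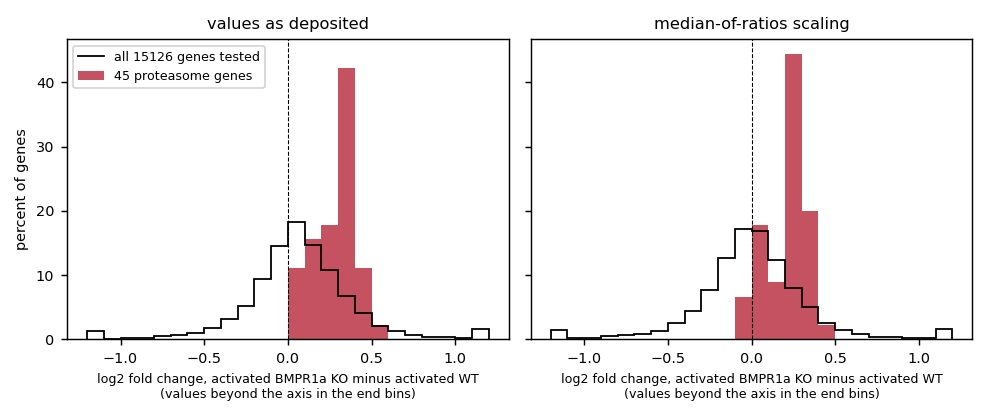
Distribution of the log2 fold change of activated BMPR1a KO minus activated WT for the 45 proteasome genes (filled bars) and all 15126 genes tested (outline), as a percentage of genes in bins of 0.1, with values as deposited on the left and after median-of-ratios scaling on the right. The proteasome genes lie right of the peak of all genes in both panels, with medians of 0.31 and 0.23, and 3 of them fall below 0 after scaling.

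**Figure D4:**
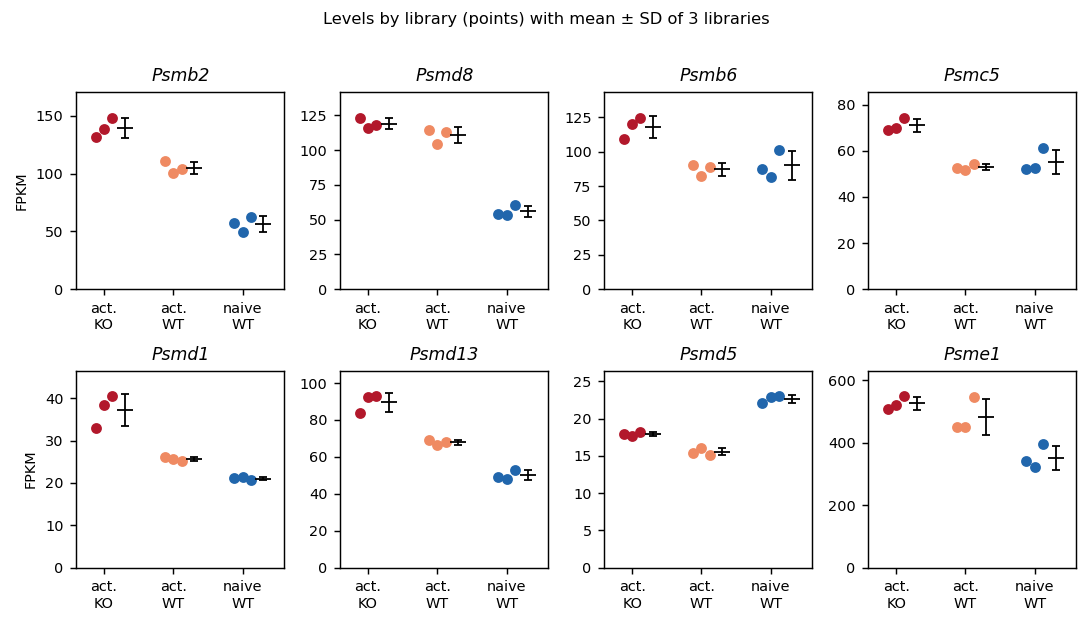
FPKM of 8 genes in the 3 libraries of each group (points), with the mean and SD beside them, for activated BMPR1a KO, activated WT and naive WT. Psmb2, Psmd1 and Psmd13 step down across the groups without overlap, Psmb6 and Psmc5 are high in activated BMPR1a KO alone, Psmd8 and Psme1 differ mainly between activated and naive, and Psmd5 is highest in naive WT.

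Activated BMPR1a KO and naive WT cells differ in genotype and activation together, and this comparison shares libraries with the 2 above. In activated BMPR1a KO 40 members were called higher and 1 lower, Psmd5, against 31.8% and 25.1% of all genes tested. The libraries lay apart, above for 40 members and below for 1, against 35.2% and 28.7% of all genes tested. All 14 genes of the 20S core and 16 of 17 of the 19S particle were called higher. Their medians were 0.79 and 0.51, against 0.044 over all genes tested. The members not called were Psmd4, Psmg2, Psmc3ip and Psme2b. The mean was highest in activated BMPR1a KO, lower in activated WT and lowest in naive WT for 36 members, against 29.9% of all genes tested, and without any overlap in that order for 19, against 8.0%. Under quantile normalization the median of all genes was -0.080, the calls were 30 higher and 2 lower (25.7% of all genes tested were called higher of 58.6% called), and the median of the members lay 0.43 above that of all genes, close to 0.47 with values as deposited. The second member called lower there, with array quality weights and without naive WT library 2 was Psmg2.

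The median of the 14 core genes was 133 to 151 FPKM in activated BMPR1a KO libraries, 104 to 118 FPKM in activated WT and 82.6 to 102 FPKM in naive WT. The coefficient of variation across these genes within a library was 25.5% to 27.9% in activated BMPR1a KO, 30.2% to 32.6% in activated WT and 30.3% to 30.8% in naive WT. The 17 genes of the 19S particle had medians of 68.4 to 74.4 FPKM in activated BMPR1a KO, 56.2 to 59.2 FPKM in activated WT and 46.5 to 51.5 FPKM in naive WT, and the 7 assembly chaperones were lower throughout, with 18.5 to 20.7 FPKM in activated BMPR1a KO, 16.1 to 17.8 FPKM in activated WT and 17.9 to 22.9 FPKM in naive WT. Activated BMPR1a KO library 1 was the lowest of its group for 35 of 45 members, against 38.4% of all genes tested, and naive WT library 3 the highest of its group for 39, against 44.3%. In activated WT the highest library was library 1 for 23 members and library 3 for 18, against 33.7% and 39.7% of all genes.

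The immunoproteasome subunits, which T cells express at high level, lie outside the set and were compared with the subunits they replace. Psmb8 was at 302, 334 and 347 FPKM in activated BMPR1a KO, 271, 252 and 295 FPKM in activated WT and 184, 168 and 217 FPKM in naive WT, and was called between the WT groups (log2 fold change 0.53, adjusted p = 0.00479). Psmb9 was at 182, 203 and 232 FPKM in activated BMPR1a KO, 154, 151 and 163 FPKM in activated WT and 111, 90.8 and 124 FPKM in naive WT (activated WT against naive WT 0.53, adjusted p = 0.00933). Psmb10 was at 103, 97.7 and 109.7 FPKM in activated BMPR1a KO, 81.8, 77.7 and 106 FPKM in activated WT and 75.8, 76.2 and 89.2 FPKM in naive WT, and the WT groups overlapped. None of the 3 was called between the activated groups, with adjusted p of 0.116 to 0.275 and log2 fold changes of 0.24 to 0.39. At an unadjusted p under 0.05, 2 were higher, as were 18.7% of all genes tested.

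Ratios within a library do not depend on its scale. Psmb8 over Psmb5 was 2.95 ± 0.109 in activated BMPR1a KO, 3.12 ± 0.0746 in activated WT and 3.04 ± 0.168 in naive WT (SD, n = 3 each). Psmb9 over Psmb6 was 1.67, 1.69 and 1.86 in activated BMPR1a KO and 1.70, 1.84 and 1.83 in activated WT, against 1.27, 1.12 and 1.22 in naive WT. Every activated library lay above every naive WT library. Psmb10 over Psmb7 was 1.05, 0.903 and 0.978 in activated BMPR1a KO and 1.01, 0.986 and 1.41 in activated WT, against 1.43, 1.48 and 1.41 in naive WT, so here the activated libraries were lower, activated WT library 3 at 1.410 just under naive WT library 3 at 1.412. The log2 difference of activated WT from naive WT was 0.57 for Psmb9 over Psmb6 and -0.36 for Psmb10 over Psmb7. For each of these, as for activated BMPR1a KO against naive WT, the two-sided exact permutation p was 0.1, the smallest that 3 against 3 libraries allow, and 0.225 after adjustment over the 9 tests. Between the activated groups the exact p values were 0.2 to 0.5, and the difference of -0.20 for Psmb10 over Psmb7 became -0.031 without activated WT library 3.

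**Figure D5:**
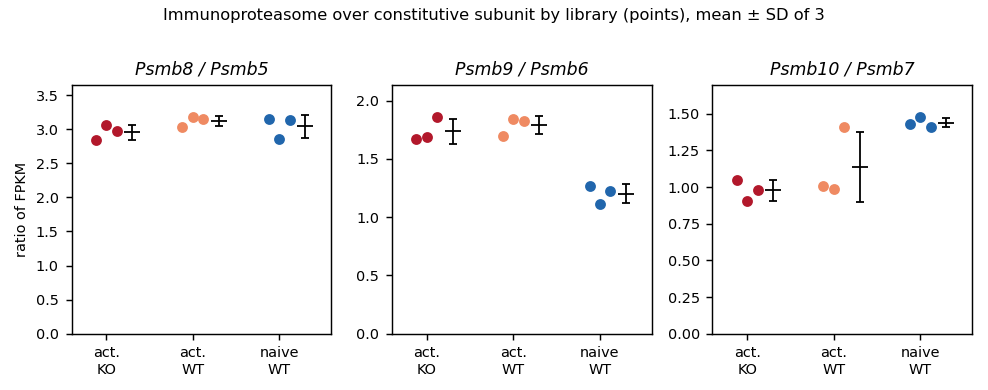
Ratio of FPKM of each immunoproteasome subunit to the catalytic subunit it replaces, per library (points), with mean and SD, for activated BMPR1a KO, activated WT and naive WT. The Psmb8 ratio overlaps between all groups, the Psmb9 ratio is higher in both activated groups, and the Psmb10 ratio is lower in both, with activated WT library 3 at 1.41 just under the naive WT libraries.

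Further genes around the proteasome were read from the same tests in 4 lists. Of 12 other assembly and proteasome-bound factors 4 were called higher and 4 lower in activated WT against naive WT, near the 26.2% and 25.8% of all genes tested given above. In activated BMPR1a KO against activated WT 2 were called higher and 0 lower (3.3% and 0.84% of all genes tested). There all 12 fold changes were above 0 (median 0.30), against 60.5% of all genes tested. At an unadjusted p under 0.05, 8 were higher and 0 lower, against 18.7% of all genes tested higher. Pomp, the chaperone that matures the core, was at 191, 195 and 205 FPKM in activated BMPR1a KO, against 156, 144 and 156 FPKM in activated WT and 91.8, 93.9 and 108 FPKM in naive WT. Its log2 fold change was 0.37 between the activated groups (adjusted p = 0.0411, range 0.00585 to 0.153 over the alternatives) and 0.63 between activated and naive WT (adjusted p = 0.000315), and the 3 groups did not overlap. Ipo9, an importin known to carry proteasomes into the nucleus, was at 23.8, 26.4 and 27.4 FPKM in activated BMPR1a KO, against 18.9, 16.8 and 17.1 FPKM in activated WT and 23.6, 23.6 and 18 FPKM in naive WT (activated BMPR1a KO against activated WT 0.53, adjusted p = 0.0463, range 0.00616 to 0.167). Sem1, a small lid subunit, was higher in activated WT at 66.8, 60.2 and 60.5 FPKM, against 40.8, 39.2 and 48.1 FPKM in naive WT (0.54, adjusted p = 0.00154), and stood at 76.1, 71.1 and 79.1 FPKM in activated BMPR1a KO. Uchl5, a deubiquitinase of the base, was at 23.9, 27.8 and 27.2 FPKM in activated BMPR1a KO, against 20.8, 18.4 and 15.7 FPKM in activated WT (0.51, adjusted p = 0.0521) and 12.4, 14.9 and 14.2 FPKM in naive WT. Zfand2a averaged 7.10 FPKM in activated BMPR1a KO, 5.80 FPKM in activated WT and 9.20 FPKM in naive WT, lower in activated WT than in naive WT (-0.56, adjusted p = 0.0200), a call lost without activated WT library 1 or 2 (up to 0.0642). The genotype calls of Pomp and Ipo9 were lost without each library except activated BMPR1a KO library 1 and naive WT library 3.

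Of 12 shuttle factors and genes of the p97 segregase, which pulls ubiquitinated proteins out of complexes, 3 were called higher and 6 lower in activated WT against naive WT (26.2% and 25.8% of all genes tested). In activated BMPR1a KO against activated WT 3 were called higher and 0 lower (3.3% and 0.84% of all genes tested). There 7 members of the list were higher and 0 lower at an unadjusted p under 0.05, against 18.7% of all genes tested higher. Vcp, which encodes p97, was at 105, 103 and 120.4 FPKM in activated BMPR1a KO, against 85.9, 83.4 and 87.5 FPKM in activated WT and 67.4, 70.0 and 70.9 FPKM in naive WT (activated BMPR1a KO against activated WT 0.35, adjusted p = 0.0411, range 0.00668 to 0.151). Its cofactor Nploc4 was at means of 26.1 FPKM in activated BMPR1a KO, 20.3 FPKM in activated WT and 16.2 FPKM in naive WT (0.35, adjusted p = 0.0419, range 0.00617 to 0.158). The shuttle factor Ubqln2 was at 10.8, 10.8 and 11.1 FPKM in activated BMPR1a KO, 8.29, 8.58 and 9.07 FPKM in activated WT and 17.3, 18.8 and 17.9 FPKM in naive WT (0.31 between the activated groups, adjusted p = 0.0393, range 0.00616 to 0.148, and -0.98 for activated against naive WT, adjusted p = 1.57e-05). Rad23b, another shuttle factor, was at 69.0, 88.5 and 83.2 FPKM in activated BMPR1a KO, 63.1, 61.4 and 64.1 FPKM in activated WT and 39.7, 41.3 and 34.4 FPKM in naive WT (activated against naive WT 0.70, adjusted p = 0.000949). Nsfl1c, the p47 cofactor of p97, averaged 45.8 FPKM in activated BMPR1a KO, 37.9 FPKM in activated WT and 57.4 FPKM in naive WT (activated against naive WT -0.58, adjusted p = 0.000182). The genotype calls of Vcp and Nploc4 were lost without each library except activated BMPR1a KO library 1 and naive WT library 3, and that of Ubqln2 without each except these and naive WT library 2.

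Among 10 ubiquitin and E1 genes 3 were called higher and 2 lower in activated WT against naive WT, about the 26.2% and 25.8% of all genes tested. In activated BMPR1a KO against activated WT 3 were higher and 0 lower at an unadjusted p under 0.05, against 18.7% of all genes tested higher. After adjustment 1 was called higher and 0 lower, where 3.3% and 0.84% of all genes were. That gene was Uba1, the main ubiquitin-activating enzyme, at 137, 143 and 148 FPKM in activated BMPR1a KO, against 119.6, 108 and 117 FPKM in activated WT and 95.7, 98.8 and 97.2 FPKM in naive WT (0.31, adjusted p = 0.0372, range 0.00588 to 0.134), a call lost without activated BMPR1a KO library 2 or 3, any activated WT library or naive WT library 1. The ubiquitin gene Ubb averaged 873 FPKM in activated BMPR1a KO, 803 FPKM in activated WT and 563 FPKM in naive WT (activated against naive WT 0.51, adjusted p = 0.00281). Uba7, the activating enzyme of the ubiquitin-like protein ISG15, was lower in activated WT, at 45.0, 44.2 and 67.6 FPKM, against 100.1, 81.4 and 96.3 FPKM in naive WT (-0.84, adjusted p = 0.00434).

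Of 15 regulators of proteasome genes 4 were called higher and 5 lower in activated WT against naive WT, near the 26.2% and 25.8% of all genes tested. In activated BMPR1a KO against activated WT 0 were called higher and 1 lower, against 3.3% and 0.84% of all genes tested. Unadjusted p values under 0.05 were found for 2 higher and 1 lower, against 18.7% of all genes tested higher. The gene called lower was Ngly1, the glycanase known to process the transcription factor NRF1. Ngly1 was at 20.6, 17 and 18.1 FPKM in activated BMPR1a KO, against 30.6, 30.5 and 25.9 FPKM in activated WT and 24.3, 20.6 and 24.3 FPKM in naive WT (-0.61, SE 0.104, adjusted p = 0.0282, range 0.00365 to 0.118). The activated groups did not overlap, and the call was lost without activated BMPR1a KO library 2 or 3, activated WT library 1 or 2 or naive WT library 1. Nfe2l1, which encodes NRF1, a known activator of proteasome genes, overlapped between all groups, at 23.3 ± 1.11 FPKM in activated BMPR1a KO, 22.9 ± 1.14 FPKM in activated WT and 22.0 ± 1.13 FPKM in naive WT. Its relative Nfe2l2 was at 24.0, 22.8 and 22.7 FPKM in activated BMPR1a KO and 20.4, 23.7 and 26.5 FPKM in activated WT, against 39.6, 40.2 and 41.5 FPKM in naive WT (activated against naive WT -0.76, adjusted p = 0.000292). Bach1, a repressor at the same elements, averaged 3.59 FPKM in activated BMPR1a KO, 4.28 FPKM in activated WT and 7.75 FPKM in naive WT (activated against naive WT -0.73, adjusted p = 0.00166). Maff, a small partner of these factors, was higher in activated WT at 2.98, 4.79 and 1.99 FPKM, against 1.11, 0.684 and 1.44 FPKM in naive WT (1, adjusted p = 0.0207), a call lost without activated WT library 1 or 2 or naive WT library 1 or 2 (up to 0.0686), and Stat3 averaged 105 FPKM in activated BMPR1a KO, 101 FPKM in activated WT and 69.2 FPKM in naive WT (activated against naive WT 0.54, adjusted p = 0.00221).

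Some levels are less certain because reads may be shared. There are 8 members with at least 95% identity over at least 300 bases to a gene whose exons do not overlap theirs: Psma3, Psma4, Psma5, Psmb5, Psmc1, Psmd2, Psme2 and Psme2b. Psma3 shares 665 identical bases with Gm13835, which was at a mean of 20.5 FPKM, and Psme2 and Psme2b share 794 bases at 99.37% identity. Psmd1 shares 301 exon bases with Gm21972 on its own strand, which was at a mean of 0.0656 FPKM. With the strand setting of the counting not given in the sources used here, exons that overlap a gene on the other strand cannot be told apart either, among them 405 bases of Psmb7 and Nek6, 342 bases of Psmd13 and Sirt3, 215 bases of Psmc3 and Slc39a13, and 385 bases of Psmc3ip and Mlx, which was at a mean of 40.6 FPKM.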

How the data were processed

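RNA of 9 libraries in 3 groups of 3 was measured, and groups were taken from the sample titles. The authors deposited FPKM values, a column for each library. TopHat2, Cufflinks and Cuffdiff were used with build GRCm38, per the submitters' processing notes. The sources used here give no versions, annotation or strand setting. Gene positions come from the GENCODE annotation of GRCm38.

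FPKM values were used unscaled as log2(FPKM + 1) for genes averaging 0.5 FPKM or more, which understates fold changes of low genes. They were tested with limma 3.58.1 in R 4.3.3 (moderated test with intensity trend, 1 fit of 3 group means, two-sided, Benjamini-Hochberg adjustment over 15126 genes, called at an adjusted p under 0.05). The method was tested on simulated data. Ratios were compared by exact permutation tests. The reads behind a library are unknown, so no counting interval is given. Near copies were searched with BLAST+ 2.17.0.

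The members and gene lists were chosen with earlier results of these data known. The rule for named genes took 16 set members, the 6 highest and up to 4 lowest called fold changes on activation, the 6 largest called between the activated groups, and up to 3 called genes per associated list and comparison. Further names were chosen after their values were seen. Some items are not reported here. Alternatives were another pseudocount (0.1), median-of-ratios and quantile scaling, no filter, a filter of 2 FPKM, no trend, array quality weights, a fit of the 6 libraries compared, a replicate block and each library left out.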

Additional observations from a re-analysis of the deposited data

How the results depend on the processing

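The activation counts moved little and the genotype counts moved much. The 12 members called higher in activated BMPR1a KO against activated WT became 37 with array quality weights, where 18.6% of all genes tested were called higher, 3 with median-of-ratios scaling, 4 with no trend, 1 with the 6 libraries compared alone and 2 with quantile normalization. It ranged from 0 to 19 with each library left out. The median log2 fold change of the members became 0.23 with median-of-ratios scaling and 0.23 with quantile normalization, and in activated BMPR1a KO against naive WT 0.35 with quantile normalization. The members called lower in that comparison were 2 with array quality weights and 2 with quantile normalization, and 1 to 2 with each library left out. In activated WT against naive WT 21 to 27 members were called higher and 1 to 2 lower with each library left out. Of all genes tested 22.8% to 26.8% were then called higher. The cause of these shifts was not tested.

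Same-numbered libraries correlated at 0.003 to 0.054 in their deviations from the group means, so the numbers are not taken to pair the samples. With a replicate block 0 members were called higher between the activated groups (limma, with 34 at an unadjusted p under 0.05). In activated WT against naive WT 23 were called higher, and 39 in activated BMPR1a KO against naive WT. Of all genes tested 0.298%, 25.1% and 30.9% were called higher there, in the same order.

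Of the genes named by rule, those that changed sign were uncalled. In activated WT against naive WT they were Psmc2 (0.031 with array quality weights, 0.017 with median-of-ratios scaling), Psmd4 (0.0099 with median-of-ratios scaling) and, with quantile normalization, Psma7 (-0.030), Psmc4 (-0.023), Psme2 (-0.063) and Psme3 (-0.055). Among the other members, Psmd11 also turned with array quality weights, Psmc3 with median-of-ratios scaling and Psma3 and Psmd11 with quantile normalization. In activated BMPR1a KO against activated WT the genes named by rule were Psme4 (-0.056 with median-of-ratios scaling, -0.081 with quantile normalization) and Psmb1 (-0.0062 with median-of-ratios scaling), beside Psmg4 under both scalings and Psme2b under quantile normalization, and in activated BMPR1a KO against naive WT Psmd4 (-0.072 with quantile normalization). With each library left out, activated WT against naive WT gave -0.11 to 0.047 for Psmb6, -0.077 to 0.032 for Psmc2, -0.097 to 0.020 for Psmc5, -0.085 to 0.057 for Psmd4, -0.056 to 0.11 for Psmg1 and -0.0087 to 0.064 for the log2 ratio of Psmb8 to Psmb5, and activated BMPR1a KO against activated WT gave -0.0042 to 0.035 for Psme4. Depth is unknown, so its limit on these values is too.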
